A study of Homo sapiens with 6 samples.

Results

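The Golgi-annotated genes described here are 46 of the 1099 genes in a table that compares F/B extract with its vehicle in a human cancer cell line. They are the rows whose annotation names the Golgi apparatus, the Golgi membrane or the trans-Golgi network. Rows that also carry a lysosomal, RNA-binding or extracellular term were left out, as were GCNT3, INSIG1, MMP14 and F3. Of 83 rows with a Golgi term, 36 fell to the excluded terms and 1 more to its name. The study has 6 poly(A) RNA libraries: 3 from cells kept for 24 h with DMSO, the vehicle, and 3 from cells kept equally long with F/B extract, which the series title describes as made from Flos Sophorae Immaturus and broccoli seed. All 6 are labelled as wild type A549, a lung adenocarcinoma line, grown in RPMI-1640 medium with serum, with no dose stated for the extract. Nothing in the labels says that replicates were separate cultures, so the p-values rest on library-to-library spread that may be technical.

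The Golgi apparatus is the stack of membrane cisternae through which secretory and membrane proteins pass on their way from the endoplasmic reticulum (ER). COPII-coated vesicles bring cargo from the ER, COPI-coated vesicles return escaped proteins, and enzymes fixed in the cisternae trim and extend the sugar chains of passing proteins and lipids. At the far side, the trans-Golgi network sorts cargo to the cell surface, to endosomes or to lysosomes, and takes back its sorting receptors by retrograde transport.

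The table is a selection: its genes, 9.74% of the 11289 that the authors tested, rank first by p-value in the authors' own comparison. A Golgi gene that is absent from it either ranked lower or did not enter that comparison. Estimated counts of the listed genes summed to between 3084337 and 4640114 per library, highest in vehicle replicate 2. These sums are not sequencing depth. Normalised counts are rounded estimated counts divided by the size factors that the deposited fold changes imply, and they serve to compare libraries. TPM (length-corrected transcript abundance on a fixed total) serves to compare genes. MTAP, a gene deleted in A549, stood at 48.9 to 60.5 TPM, and the library names in the labels begin with AGS, the name of a gastric line. Of 13 gastric and intestinal marker genes looked up, 4 were listed: VIL1 (142 to 214 TPM), TFF1 (33.3 to 81.5), CDH17 (33.6 to 48.0) and REG4 (5.83 to 11.6). All 4 were lower with extract. None of the other 8 A549 markers and none of 3 leukocyte markers was listed, which in a selected table does not show that they were silent, and of 5 stromal markers COL1A1 was (10.0 to 15.8 TPM). MTAP goes against the label A549, which line was used was not settled here, and the part of any difference between cell types in the Golgi values was not tested.

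With extract, 22 of the 46 Golgi genes rose and 17 fell by edgeR's quasi-likelihood test (adjusted p under 0.05), and 7 did not pass. Over all listed genes, 81.6% were called, 29.0% higher and 52.6% lower, against 47.8% higher and 37.0% lower among the Golgi genes. This contrast depended on the scale: of the genes called, 56.4% of the Golgi genes and 35.6% of all listed genes were higher on the scale reported, but 86.7% and 81.6% were with TMM scaling over the listed genes, where 4 Golgi genes and 87 listed genes were called lower. The median log2 fold change (extract over vehicle, log2 of the ratio of normalised counts) was 0.20 over the Golgi genes and -0.22 over the whole table. No test sets the Golgi genes against the others, because the table was selected on this comparison and the members were chosen with earlier results known. Changes were small. Their log2 fold changes ran from -0.67 to 0.41, with a median absolute value of 0.26, against 0.29 over all listed genes. The 3 libraries of a group did not overlap with the other 3 in normalised counts for any of the 46, with 26 higher and 20 lower. Over all listed genes 34.7% were higher without overlap and 63.8% lower, so separation of the groups was general in this selected table.

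The 3 extract libraries lay close together, which a table selected by p-value in this comparison favours. The median over the 46 genes of the log2 ratio to the vehicle mean was 0.16, 0.20 and 0.16 in extract replicates 1 to 3 and lay between -0.01 and 0.01 in the vehicle libraries. Over all listed genes it was -0.17, -0.21 and -0.22 in extract replicates 1 to 3. With 26 members higher and 20 lower, the median does not stand for a shift shared by all members.

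**Figure D1:**
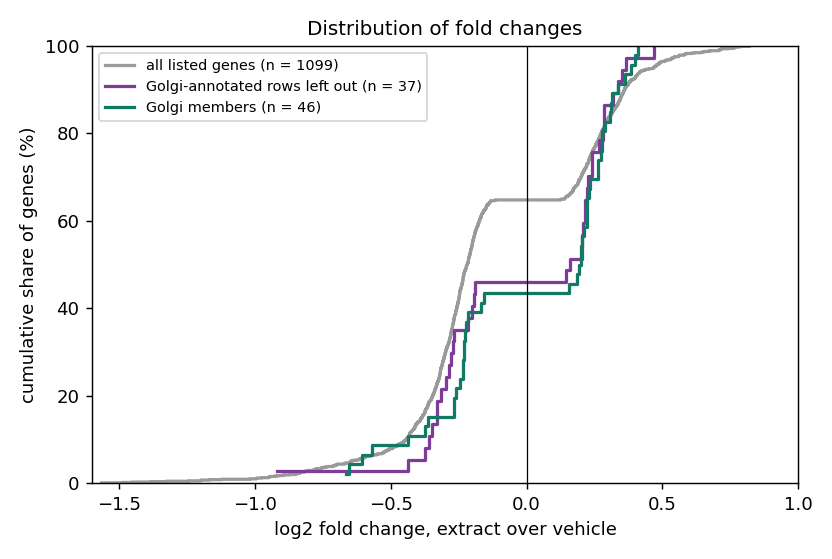
Cumulative share of genes (y axis, %) against log2 fold change, extract over vehicle (x axis), for the 46 Golgi members, the 37 Golgi-annotated rows that the rule left out, and all 1099 listed genes. The Golgi curve crosses 0 at 20 of 46 genes and lies below the curve of all listed genes around 0, where that curve is at 712 of 1099. Above 0 the curves cross, since the Golgi genes end at 0.41 and the listed genes at 0.82, and few genes lie near 0 in any set, because the table holds selected genes only.

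In TPM, the rise and the fall of single genes nearly balanced in total transcript abundance. The scale that TPM implies raises the median log2 fold change of all listed genes by 0.09. The balance therefore need not hold on the scale reported. The 26 genes that were higher summed to 946, 918 and 930 TPM in vehicle replicates 1 to 3 and to 1114, 1173 and 1184 TPM in extract replicates 1 to 3. The 20 that were lower summed to 2006, 2119 and 2058 TPM with vehicle and to 1738, 1808 and 1818 TPM with extract. They include PRMT5, whose mean TPM was higher with extract. Over all 46 the sums were 2951, 3037 and 2988 TPM with vehicle and 2852, 2980 and 3002 TPM with extract, and the groups overlapped. The genes that were lower were the more abundant ones, with a median of 61.5 TPM in vehicle against 32.3 TPM for those that were higher. The same held in the whole table, at 91.6 and 24.2 TPM.

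**Figure D2:**
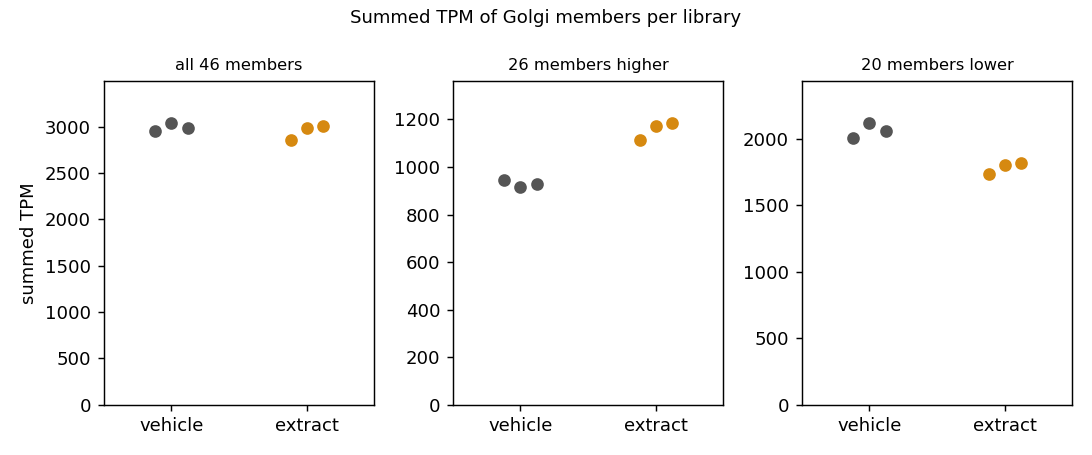
Summed TPM (y axis, from 0) per library for all 46 Golgi members, the 26 that were higher and the 20 that were lower; each point is 1 library. The sums of the 2 directions separate by group, since direction defined them, while the sums over all 46 (2852 to 3037 TPM) overlap between vehicle and extract.

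All 7 genes with the trans-Golgi network term rose: TGOLN2, WLS, BACE2, OCRL, ATP9A, WIPI1 and ATP8A1, with a median log2 fold change of 0.22. Of the 6 fits that leave out 1 library, ATP9A kept its call in 6 and TGOLN2, OCRL and WIPI1 in 3. WLS, BACE2 and ATP8A1 kept theirs in 1. Over all listed genes 29.0% were called higher. The rise was not particular to this term, since 15 of all 17 listed genes with the endosome term were higher, 11 of them by call. Those 17 include TGOLN2, BACE2 and ATP9A, so the 2 terms share genes. Of the 19 with the Golgi membrane term, 8 rose and 8 fell, and of the 22 that carry the broad apparatus term alone, 9 rose and 9 fell. No count here was tested against the other terms. The 37 Golgi-annotated rows outside the rule had 18 that rose and 15 that fell, with a median log2 fold change of 0.16. Among them the 20 with a lysosomal term had 12 that rose and 5 that fell.

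**Figure D3:**
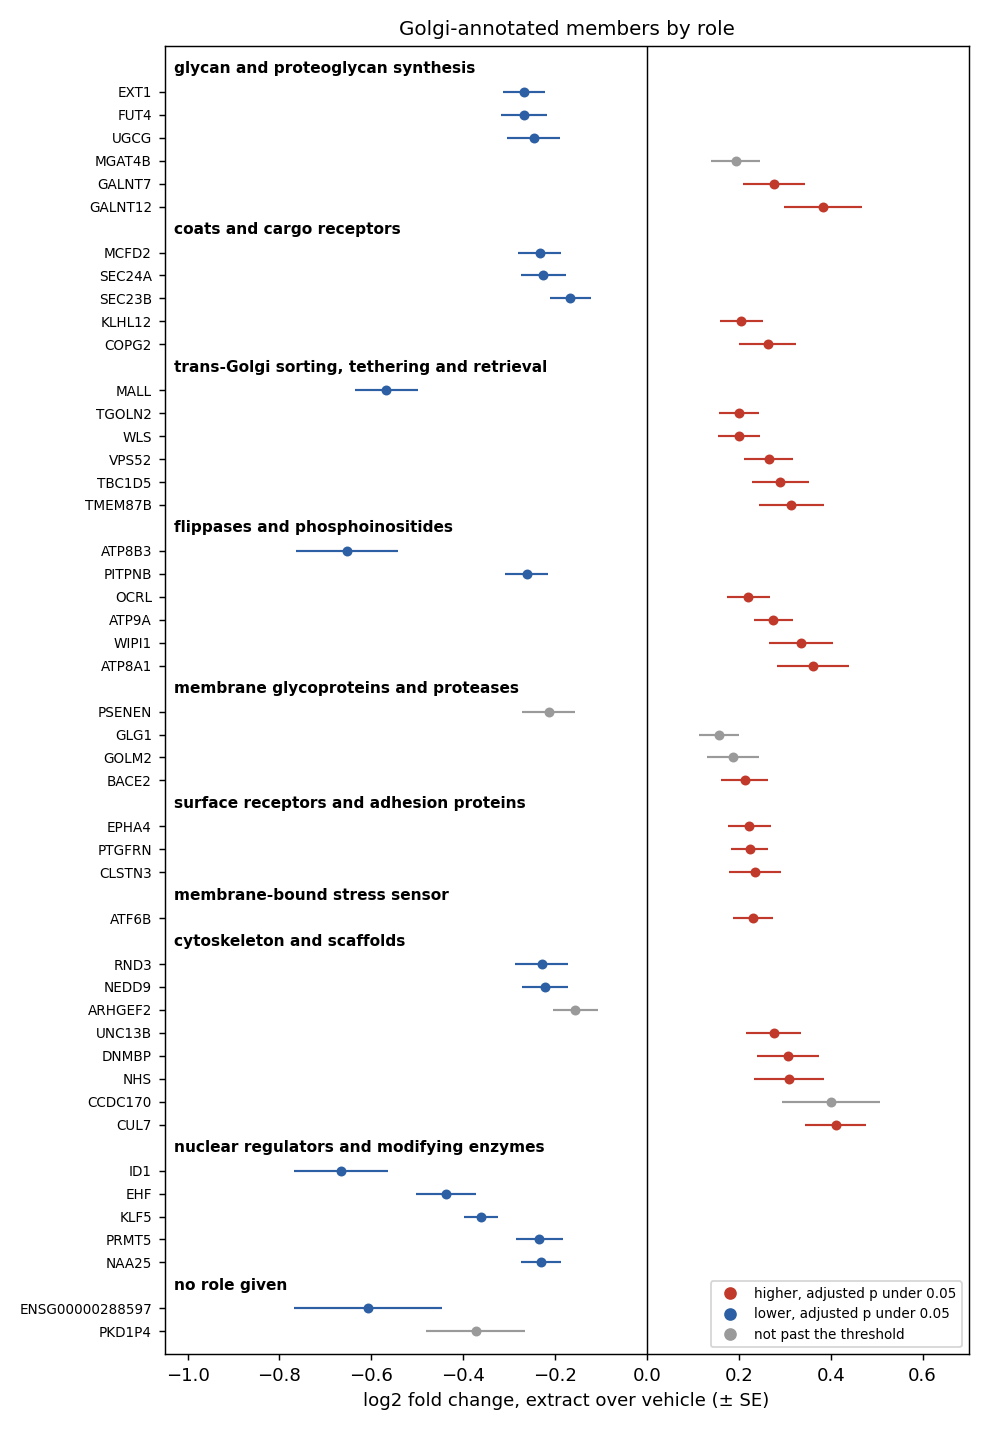
Log2 fold change, extract over vehicle (x axis, point ± SE), of each of the 46 Golgi members (y axis), grouped by role; red and blue mark genes with adjusted p under 0.05, higher and lower, and grey those not past the threshold. Surface receptors and most trans-Golgi sorting genes lie to the right of 0, and the nuclear regulators all lie to the left.

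In trans-Golgi sorting, tethering and retrieval, 5 of 6 genes rose and 1 fell. TGOLN2 (ENSG00000152291, GRCh38 chromosome 2, 85318020 to 85328425), the transmembrane protein TGN46 that cycles between the trans-Golgi network and the surface, had 3456, 3348 and 3289 normalised counts with vehicle and 3793, 4035 and 3766 with extract. Every extract library was above every vehicle library, as for each of the 26 members that were higher. The log2 fold change was 0.20, with an SE of 0.04 (edgeR adjusted p = 0.0238). VPS52, a subunit of the GARP tether that receives vesicles coming back from endosomes, had 732, 728 and 744 with vehicle and 913, 876 and 859 with extract, a log2 fold change of 0.26. It shares 38 exonic bases with RPS18 on the opposite strand, which was lower at -0.32.

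The next genes had log2 fold changes from 0.20 to 0.31. TBC1D5, a Rab GTPase-activating protein that works with retromer, had 1115 ± 80.5 normalised counts with vehicle and 1362 ± 53.1 with extract (SD, 3 libraries each), or 0.29. TMEM87B, a Golgi membrane protein, had 1822, 1635 and 1650 with vehicle and 1906, 2147 and 2293 with extract, or 0.31. WLS, the carrier that takes Wnt proteins from the Golgi to the surface, had 1990, 2056 and 1890 with vehicle and 2296, 2276 and 2254 with extract, or 0.20. Vehicle replicate 1 of TMEM87B lay closest to the extract libraries. Of the 6 fits that leave out 1 library, VPS52 kept its call in 3, and TBC1D5 and TMEM87B in 2. The exception was MALL (ENSG00000144063, chromosome 2, 110083870 to 110116566), a MAL-family protein of lipid-rich membrane domains. It had 3294, 3210 and 3195 normalised counts with vehicle and 2235, 2379 and 1929 with extract. Extract replicate 3 was the lowest, and the groups lay far apart. The log2 fold change was -0.57, with an SE of 0.07 (edgeR adjusted p = 0.00269).

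Flippases and phosphoinositide genes had 4 that rose and 2 that fell. ATP9A (ENSG00000054793, chromosome 20, 51596514 to 51768634), a P4-type ATPase of endosomes and the trans-Golgi network, had 4304, 4330 and 4219 normalised counts with vehicle and 5316, 5279 and 4956 with extract. Its log2 fold change was 0.27 (SE 0.04, edgeR adjusted p = 0.00626), and it was the only Golgi gene that rose and kept its call in each of the 16 other settings tried. ATP8A1, a flippase that turns phosphatidylserine inward, was at 0.36 from a low level of 3.58 ± 0.485 TPM, and in TPM its groups overlapped. ATP8B3, another family member at 4.06 ± 0.371 TPM, moved the other way, from 236 ± 21.9 to 151 ± 9.0 normalised counts (SD, n = 3 each), or -0.65 (SE 0.11). The ATP8B3 call was lost without vehicle replicate 2.

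Phosphoinositide genes also went both ways. OCRL, the inositol phosphatase mutated in Lowe syndrome, had 1195, 1150 and 1158 normalised counts with vehicle and 1384, 1360 and 1336 with extract, or 0.22. WIPI1, which binds phosphatidylinositol phosphates on forming autophagosomes, had 666, 640 and 572 with vehicle and 819, 789 and 761 with extract, or 0.34. PITPNB, which carries phosphatidylinositol to Golgi membranes, had 2300, 2170 and 2258 with vehicle and 1799, 1891 and 1920 with extract, or -0.26, and lost its call on each of the 4 other scales (-0.17 to -0.09). No vehicle library of these 3 genes lay within the range of the extract libraries, which held for all 46 members.

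Of 5 coat and cargo receptor genes 2 rose and 3 fell on the scale reported. SEC24A, the cargo-binding coat subunit, had 1476, 1472 and 1486 normalised counts with vehicle and 1212, 1252 and 1328 with extract. Its log2 fold change was -0.23 (SE 0.05, edgeR adjusted p = 0.0235). SEC23B, the partner subunit at 137 TPM, was at -0.17 (edgeR adjusted p = 0.0487), and its direction turned with DESeq2 size factors (0.01). MCFD2, which with LMAN1 carries coagulation factors out of the ER, had 3872, 3865 and 4027 normalised counts with vehicle and 3195, 3287 and 3525 with extract. All 3 extract libraries were below all 3 vehicle libraries, at -0.23, although in TPM the groups overlapped. All 3 lost their call on each of the 4 other scales, where SEC24A lay between -0.14 and -0.05 and MCFD2 between -0.14 and -0.06. Of the 6 fits that leave out 1 library, SEC23B kept its call in 0, SEC24A in 1 and MCFD2 in 3.

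The other 2 rose. COPG2, a gamma subunit of the COPI coat, had 757, 772 and 693 normalised counts with vehicle and 930, 864 and 875 with extract, or 0.26. KLHL12, the adaptor through which cullin-RING ligases modify the COPII coat protein SEC31, had 1204, 1160 and 1153 with vehicle and 1371, 1327 and 1355 with extract, or 0.21. Both kept their call on the 4 other scales, as did all 22 genes that rose. Those scales raise every gene by a near-constant amount, so this does not set the 2 apart. Of the 6 leave-outs COPG2 kept its call in 0 and KLHL12 in 2. SEC13, a COPII subunit that is not among the 46, was lower at -0.20. COPG2 shares exonic bases with MEST and SEC24A with SAR1B on the opposite strand, and without a stated strand setting such reads cannot be told apart. The limit is wider: 23 members share exonic bases with another gene, 12 of them with a protein-coding one. WIPI1 shares 828 bases with ARSG on the opposite strand, CUL7 329 with KLC4 on the opposite strand, and FUT4 683 with PIWIL4 on the same strand.

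Promoters of the members were searched because motifs of the Golgi and ER stress responses are read there. The windows printed below were chosen because they hold a match, whatever the role of the gene, and promoters without a match are not shown. RefSeq promoters (GRCh38.p14, 250 bases before to 50 after each annotated start) were found for 39 of the 46 genes. In background, TFE3 and related factors bind the E-box CACGTG and, in the Golgi stress response, the element ACGTGGC, and ATF6 and XBP1 bind TGACGTGG. Each motif was searched on both strands; in SEC24A the ACGTGGC upstream overlaps TGACGTGG and the other overlaps CACGTG, as it does in TBC1D5. The 60-base windows below lie before the start and are written 5′ to 3′ on the gene's strand, with the match in capitals.
SEC24A (chr5:134648582-134648641, plus strand, ACGTGGC): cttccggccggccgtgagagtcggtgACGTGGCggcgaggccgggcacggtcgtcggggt
SEC24A (chr5:134648715-134648774, plus strand, ACGTGGC on the other strand): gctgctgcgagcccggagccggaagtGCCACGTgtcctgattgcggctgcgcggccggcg
MCFD2 (chr2:46915901-46915960, minus strand, CACGTG): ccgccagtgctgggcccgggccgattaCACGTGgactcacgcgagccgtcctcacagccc
TBC1D5 (chr3:17742632-17742691, minus strand, ACGTGGC): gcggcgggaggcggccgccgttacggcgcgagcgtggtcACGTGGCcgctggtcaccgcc
ATF6B (chr6:32128316-32128375, minus strand, CACGTG): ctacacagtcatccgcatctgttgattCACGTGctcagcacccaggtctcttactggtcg

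The matches were few and lay on both sides of 0. CACGTG was in the promoters of 4 of the 39 genes (10.3%), against 8.77% of 27305 symbols in the promoter table. SEC24A and MCFD2, with it, fell, and TBC1D5 and ATF6B, with it, rose. ACGTGGC was in 2 of 39 (5.13%, against 3.95% of all symbols), SEC24A and TBC1D5, which moved in opposite directions. TGACGTGG was in SEC24A alone (2.56%, against 0.927%). The cyclic AMP response half-site TGACGT was in 7 of 39 (17.9%, against 9.64%), 3 higher and 4 lower. The CCAAT box was in 17 of 39 (43.6%, against 39.7%). A match is a description of these letters and not a site shown to be used.

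Enzymes of glycan and proteoglycan synthesis went both ways, with 2 that rose, 3 that fell and 1 that did not pass. GALNT12 and GALNT7 start mucin-type O-glycans or extend their first clusters. GALNT12 had 367, 323 and 308 normalised counts with vehicle and 440, 432 and 427 with extract. Its log2 fold change was 0.38, with an SE of 0.08 (edgeR adjusted p = 0.0244). GALNT7 had 1754, 1664 and 1706 with vehicle and 1879, 2036 and 2289 with extract, or 0.28. In both genes the lowest extract library was above the highest vehicle library, as in all 26 members that were higher. Of the 6 leave-outs GALNT12 kept its call in 3 and GALNT7 in 1.

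The enzymes that fell act on other chains. EXT1, which polymerises heparan sulfate, had 1717, 1795 and 1790 normalised counts with vehicle and 1514, 1435 and 1455 with extract. Its log2 fold change was -0.27 (SE 0.05, edgeR adjusted p = 0.00942). FUT4, a fucosyltransferase that makes Lewis X, had 1292, 1230 and 1265 with vehicle and 1075, 1063 and 1006 with extract, also at -0.27. UGCG, which makes glucosylceramide at the head of glycosphingolipid synthesis, had 1083, 1005 and 1040 with vehicle and 829, 902 and 905 with extract, or -0.25. None of the 3 had an extract library within the vehicle range, as none of the 46 members had. All 3 lost their call on each of the 4 other scales, where EXT1 and FUT4 lay between -0.18 and -0.09 and UGCG between -0.16 and -0.07. Of the 6 leave-outs EXT1 kept its call in 4, FUT4 in 3 and UGCG in 1. MGAT4B, which adds a branch to N-glycans, had 2555 ± 152 and 2923 ± 112 normalised counts (SD, n = 3 each) and missed the threshold at 0.19 (edgeR adjusted p = 0.0601). MGAT4B shares 105 exonic bases with SQSTM1 on the opposite strand, and SQSTM1 was higher at 0.72; the part of shared reads in its value was not tested.

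Among membrane glycoproteins and proteases, 1 of 4 passed. BACE2, an aspartyl protease related to beta-secretase, had 2145, 2000 and 2212 normalised counts with vehicle and 2377, 2525 and 2463 with extract, or 0.21 (edgeR adjusted p = 0.0316). GLG1, a Golgi sialoglycoprotein, at 0.16 and GOLM2 at 0.19 did not pass (edgeR adjusted p = 0.0571 and 0.0892). PSENEN, a subunit of gamma-secretase, was at -0.21 and just outside (edgeR adjusted p = 0.0505).

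All 3 surface receptors and adhesion proteins rose, with log2 fold changes of 0.22 to 0.23. EPHA4, an ephrin receptor, had 2006, 1910 and 1941 normalised counts with vehicle and 2337, 2324 and 2173 with extract. PTGFRN, an immunoglobulin-family partner of tetraspanins, had 2319, 2248 and 2246 with vehicle and 2667, 2671 and 2617 with extract. CLSTN3, a calsyntenin, had 868, 896 and 947 with vehicle and 1110, 1047 and 1035 with extract. Of the 6 leave-outs EPHA4 and PTGFRN kept their call in 3 and CLSTN3 in 1. ATF6B, a membrane-bound transcription factor that is cut in the Golgi under ER stress, had 1233, 1252 and 1235 with vehicle and 1478, 1452 and 1438 with extract. The libraries within each group differed little, and the log2 fold change was 0.23, with an SE of 0.04 (edgeR adjusted p = 0.0142). ATF6B kept its call in 3 of the 6 leave-outs.

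Genes of the cytoskeleton and scaffolds had 4 that rose, 2 that fell and 2 that did not pass. CUL7 (ENSG00000044090, chromosome 6, 43037617 to 43053945), a cullin scaffold of ubiquitin ligases, had 413, 401 and 413 normalised counts with vehicle and 560, 532 and 538 with extract. At 0.41 (SE 0.07, edgeR adjusted p = 0.00732) it had the highest log2 fold change of the 46, and the call was lost without vehicle replicate 2. DNMBP, an exchange factor for CDC42, had 667, 689 and 617 with vehicle and 796, 863 and 783 with extract, or 0.31. NHS, an actin regulator, was at 0.31 too, and UNC13B, which primes vesicles for fusion, was at 0.28. Of the 6 leave-outs DNMBP kept its call in 3, and NHS and UNC13B in 1. CCDC170, a microtubule-associated protein, was at 0.40 and did not pass (edgeR adjusted p = 0.0508). Its spread was wide, with 310 ± 32.1 normalised counts in vehicle and 408 ± 43.3 in extract (SD, 3 libraries each).

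On the other side, RND3 had 1719, 1632 and 1706 normalised counts with vehicle and 1327, 1457 and 1528 with extract, or -0.23, while its TPM groups overlapped. NEDD9, a focal adhesion scaffold at 198 TPM in vehicle, was at -0.22. Both lost their call on each of the 4 other scales, where RND3 lay between -0.14 and -0.05 and NEDD9 between -0.13 and -0.05. ARHGEF2, a microtubule-bound exchange factor at 278 ± 6.97 TPM with vehicle and 266 ± 4.31 TPM with extract (SD, 3 libraries each), did not pass. Its log2 fold change was -0.16 (edgeR adjusted p = 0.113) and turned to 0.02 with DESeq2 size factors.

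All 5 genes grouped, after their values were seen, as nuclear regulators and modifying enzymes fell, and these are known for work outside the Golgi. A lower level was common over the whole table, where 712 of 1099 listed genes were lower. Of the 384 listed genes with the nucleus term 275 were lower, as were 6 of the 8 Golgi genes with it. ID1 (ENSG00000125968, chromosome 20, 31605283 to 31606515), which keeps basic helix-loop-helix factors off DNA, had 2755, 2476 and 2981 normalised counts with vehicle and 1899, 1838 and 1433 with extract, a 1.59-fold decrease. Its log2 fold change was -0.67 (SE 0.10, edgeR adjusted p = 0.00623), the lowest of the 46. KLF5 (ENSG00000102554, chromosome 13, 73054976 to 73077542), a Krüppel-like factor of proliferating epithelium, had 10843, 10923 and 10965 with vehicle and 8512, 8631 and 8332 with extract. The change of -0.36 (SE 0.04, edgeR adjusted p = 0.00146) was large against the spread of either group.

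EHF, an epithelial ETS factor, had 2028, 2094 and 2047 normalised counts with vehicle and 1415, 1456 and 1687 with extract, or -0.44; extract replicate 3 was nearest to the vehicle, and the call was lost with TMM and with DESeq2 size factors. NAA25, a subunit of an N-terminal acetyltransferase, had 1723, 1672 and 1659 with vehicle and 1415, 1438 and 1452 with extract, or -0.23. PRMT5, an arginine methyltransferase, was also at -0.23, with 3230, 3395 and 3215 against 2927, 2838 and 2604, but its TPM overlapped between the groups with a higher mean in extract. NAA25 and PRMT5 lost their call on each of the 4 other scales, where NAA25 lay between -0.14 and -0.06 and PRMT5 between -0.15 and -0.06. These 5 genes are among the 22 members that carry the broad apparatus term alone, as VPS52 and GOLM2 do, so the term does not set them apart. For these 5 the label Golgi describes an annotation, and their site of action was not tested. Without these 5, 22 of the other 41 rose and 12 fell. Since the 5 were grouped with their values seen and all fell, leaving them out could only lower the number that fell. The last pair of members has no role here. PKD1P4, a pseudogene of PKD1 with near-identical copies, was at -0.37 and did not pass, and its counts are uncertain. ENSG00000288597, an unnamed transcript annotated through a deer protein, was at -0.61 and overlapped in TPM (edgeR adjusted p = 0.0489).

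**Figure D4:**
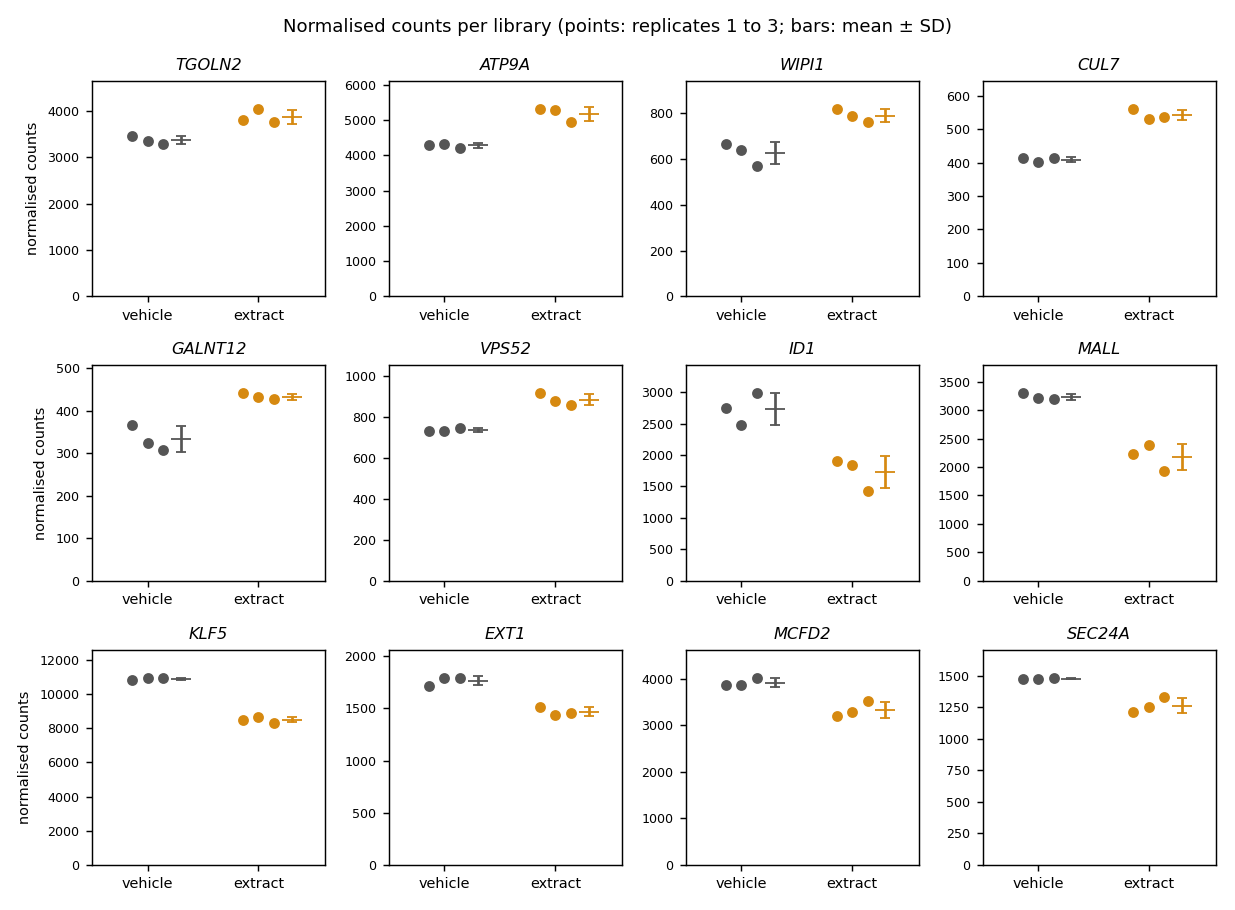
Normalised counts (y axes, from 0) of 12 Golgi genes in each of the 6 libraries; points are replicates 1 to 3 of vehicle (grey) and extract (orange), with the mean ± SD beside them. In each of the 12 genes the extract points lie wholly above (first 6 genes) or wholly below (last 6) the vehicle points. The 12 were picked as 6 that rose and 6 that fell. Such separation held for all 46 members. Over all listed genes 34.7% were higher without overlap and 63.8% lower.

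The wider secretory pathway was looked up in lists made by role, whether or not a gene met the annotation rule. Of 721 genes on these 13 lists, 54 were in the table, of which 30 rose, 19 fell and 5 did not pass. Over all listed genes 29.0% were called higher and 52.6% lower. The calls on the lists are on the scale reported, and they were not counted on the 4 other scales. On those, 65.3% to 81.8% of the calls over all listed genes were higher. Trans-Golgi network sorting had 8 of 74 listed, 7 that rose and 1 that fell, the last being MALL. Besides TGOLN2 and TMEM87B, these were the sorting receptors SORL1 at 0.36, IGF2R at 0.34, SORT1 at 0.22 and M6PR at 0.16, which carry hydrolases and other cargo to endosomes, and WASHC2C at 0.30, a subunit of the actin-nucleating WASH complex. Golgi proteases and processing enzymes had 7 of 45 listed, 5 that rose and none that fell. They included CPD at 0.31, a carboxypeptidase, GNPTAB at 0.28, which builds the mannose 6-phosphate tag of lysosomal enzymes, NCSTN at 0.21 and ADAM17 at 0.18. The coats had 5 of 60 listed, with 1 that rose and 4 that fell.

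Signalling proteins annotated to the Golgi had the most listed genes, 10 of 78, of which 6 rose, 3 fell and 1 did not pass. TAP1 at 0.34 and TAPBP at 0.27, which load peptides onto class I molecules, and LRP1, an endocytic receptor, at 0.29 were among those that rose. UNC93B1 at 0.29, ITM2B at 0.23 and PTGFRN at 0.22 were the others. JAG1, a Notch ligand, at -0.23, PLK2, a kinase, at -0.34 and CD55, an inhibitor of complement, at -0.44 fell, and APLP2 at 0.14 did not pass.

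The remaining lists had 6 listed genes or fewer. Glycosyltransferases had 5 of 80 and proteoglycan synthesis 1 of 50, all among the 46 and given above. Transporters had 1 of 41 (CLCN5 at -0.32), and lipid modification of proteins 1 of 32 (HHAT at 0.76). No SNARE or fusion factor of 43 was in the table, 2 of 74 Arf and Rab genes were (ARFGEF3 at 0.28 and ARFIP2 at -0.25), and 3 of 60 golgins and tethers were (VPS52, GOLM1 at 0.21 and GOLM2). Of 29 genes of the Golgi stress response 6 were listed, 3 that rose and 3 that fell. UAP1L1, a TFE3 target, was at 0.56, and CREB3L2, a Golgi-cleaved transcription factor, was at -0.20. KLF2 at 0.58 and KLF4 at -0.46 are on the same list and moved apart. Of 71 lipid genes 5 were listed, among them the cholesterol exporter ABCA1 at -0.95.

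Members were longer than the table at large. The median length given in the table was 3994 bases for the 46 genes and 2998 bases for all 1099. Those that were higher had a median of 4131 bases and those that were lower 3712 bases, against 4104 and 2374 bases in the whole table. Length therefore moved with direction in the whole table, and its part in the values of the Golgi genes was not tested.

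How many Golgi genes pass depended on the scale and on single libraries. The 4 other scales raise the median log2 fold change of all listed genes by 0.09 to 0.17. TMM, DESeq2 size factors and listed-gene sums are set over the listed genes, of which 712 of 1099 were lower. All 22 higher calls were therefore kept on each of the 4 scales, and 4 to 5 of the 17 lower calls were. With them 25 to 26 Golgi genes were called higher and 4 to 5 lower, so that 83.3% to 86.7% of calls were higher instead of 56.4%. Over all listed genes 65.3% to 81.8% of calls were then higher instead of 35.6%. The gap in this share between the Golgi genes and the table narrowed on each of these scales. The median log2 fold change was then 0.29 to 0.37 over the Golgi genes and -0.13 to -0.05 over all listed genes. On the scale reported these medians were 0.20 and -0.22, and the distance between them hardly changed. Vehicle replicate 2, when left out, cut the calls to 1 higher and 5 lower, or 16.7% higher against 28.7% over all listed genes, which turns the contrast. Leaving out vehicle replicate 3 gave 2 and 6 (25.0% against 26.1%), and leaving out extract replicate 2 gave 2 and 5 (28.6% against 27.8%). Leaving out vehicle replicate 1, extract replicate 1 or extract replicate 3 gave 15 to 17 higher and 14 to 15 lower. The median log2 fold change stayed between 0.18 and 0.21 in these and the other leave-outs. ID1, MALL, KLF5 and ATP9A were called in each of the 16 other settings, 3 of which could lose no call, and the other called genes lost their call in at least 1.

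**Figure D5:**
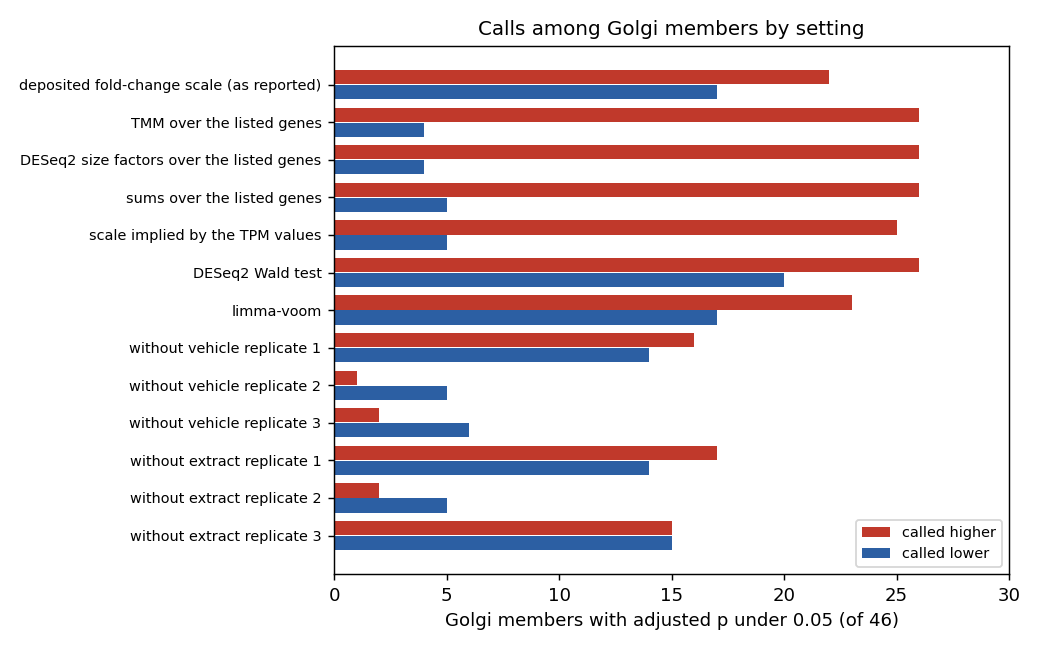
Number of the 46 Golgi members with adjusted p under 0.05 (x axis, from 0), higher (red) and lower (blue), for the scale reported, 4 other scales, 2 other tests and with each library left out (y axis). The other scales cut the lower calls from 17 to 4 or 5, and leaving out vehicle replicate 2, vehicle replicate 3 or extract replicate 2 cuts the higher calls from 22 to 1 or 2.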

How the data were processed

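Per the file headers, the authors deposited estimated counts and TPM per gene and library with a length in bases, and their comparison as a fold change (ratio), log2 fold change, p-value and adjusted p-value. Group mean TPM columns were also deposited. The submitters' processing notes name GRCh38.p13 as genome build; for aligner, counter and strand setting, nothing is given in the sources used here. The deposited fold changes are vehicle over extract; all directions here are extract over vehicle. Between 31.8% and 35.9% of the estimated counts per library were not whole and were rounded. Library scales were found by matching the deposited fold changes (median absolute log2 difference 5.81e-05). Genes were tested over the whole table with edgeR 4.0.16 (R 4.3.3, quasi-likelihood, no covariate), with Benjamini-Hochberg adjustment over the 11289 genes that the authors' adjusted p-values imply and a threshold of 0.05. SE is the absolute log2 fold change over the square root of F. The spread was estimated from selected genes, so p-values may be too small. edgeR's filter removed 0 genes. DESeq2 1.42.0 and limma 3.58.1 (voom) were alternatives. The test was checked on simulated data. Gene positions and overlaps are from GENCODE v29 (GRCh38), where 45 of 46 members were found.

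Members, role lists and tests were chosen with earlier results of these data known, and the motifs and the 9 role groups of members after their values were seen. The rule for named genes took, among members averaging 5 TPM or more in a group, up to 12 called members per direction by log2 fold change, up to 4 per role list by p-value, and the 3 with the highest TPM; 32 of 46 were so named, and the others are given because every member is accounted for.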

Additional observations from a re-analysis of the deposited data

How the results depend on the processing

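Of the 46 Golgi genes, 22 were called higher and 17 lower as reported. With TMM, DESeq2 size factors, listed-gene sums and a scale from TPM, 4, 4, 5 and 5 were called lower, and the median log2 fold change of the members was 0.35, 0.37, 0.33 and 0.29 in place of 0.20; these scales add a near-constant amount to every gene. With DESeq2 size factors SEC23B turned to 0.0078 and ARHGEF2 to 0.0184, neither past the threshold. Leaving out 1 library gave 1 to 17 called higher and 5 to 15 called lower, with medians from 0.18 to 0.21; each such fit has fewer samples. Putting back the rows dropped for other terms gave 40 higher and 31 lower of 82. With the replicate number as a block, 2 were called higher and 6 lower (25.0% of calls higher, against 28.1% over all listed genes). Deviations of same-numbered libraries from their group means had r = -0.231, -0.01 and -0.032 over the listed genes. Selection by p-value favours genes with little spread within a group, so this check cannot settle whether the numbers pair the samples. DESeq2 called 26 and 20, limma-voom 23 and 17, both filters 22 and 17, and adjustment over the listed genes alone 26 and 20. Whole-library totals were not used here, so the precision that depth allows is not known.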

Other observations

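The TPM and the counts of PRMT5 did not move together. Its normalised counts fell in every extract library, while its TPM were 157, 288 and 149.9 with vehicle and 188, 195 and 249 with extract, so that the groups overlapped and the TPM mean was higher with extract. The ratio of normalised count to TPM differed 1.86-fold between its highest and lowest library, against a median of 1.08-fold over all listed genes. CCDC170 followed at 1.51-fold. In TPM the groups overlapped for 5 of the 46 Golgi genes, or 10.9%: PRMT5, MCFD2, RND3, ATP8A1 and ENSG00000288597. Over the whole table this held for 259 genes, or 23.6%.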
